A study of Mus musculus with 10 samples.

Results

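The 10 genes described here encode 5 signal transducers of the STAT family (Stat3, Stat4, Stat5a, Stat5b and Stat6) and 5 members of the SOCS family, which restrain cytokine signalling (Socs1, Socs2, Socs3, Cish and Socs7). They were taken by name, as a list of STAT and SOCS genes, from 45321 genes with a value in the deposited tables. All 10 were among the 14417 genes that passed the filter on low counts. Stat2, Socs4, Socs5 and Socs6, of the same families, are described separately.

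RNA was measured in naive CD4 T cells (sorted as CD4+CD62L+CD69-) from the spleens of C57BL/6 mice, with the question of what an inhibitor of the NFAT:AP-1 complex, named Compound 10, does to their gene expression. Cells received DMSO as vehicle or 12.5 µM Compound 10 for 1 h. They were then left unstimulated, or activated for a further 2 h with PMA (10 nM) plus ionomycin (1 µM). This pair of drugs acts below the antigen receptor by activating protein kinase C and raising calcium. No holding time after the 1 h is given here for the unstimulated groups. The 4 groups were vehicle unstimulated (3 libraries), Compound 10 unstimulated (2 libraries), vehicle stimulated (2 libraries) and Compound 10 stimulated (3 libraries). No genetic change is named for any group, and the labels give neither the age nor the number of the mice, nor whether each library stands for its own mouse or culture. The p-values therefore measure the spread between these libraries, which may be technical.

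Cytokine receptors carry Janus kinases on their cytoplasmic tails, and these kinases phosphorylate STAT proteins, which pair up, enter the nucleus and bind a palindromic DNA element. SOCS genes are classic targets of STAT proteins, and their products close a negative feedback loop by blocking kinases, covering receptor docking sites or directing receptor complexes to degradation. In CD4 T cells, STAT5 is the main transducer of interleukin-2 and interleukin-7, STAT3 of interleukin-6 and interleukin-10 family signals, STAT4 of interleukin-12 and STAT6 of interleukin-4.

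The DNA element of STAT proteins was looked for in the promoters of the members, because Socs3, Socs1 and Cish carried most of the changes described below. RefSeq promoter windows (GRCm38.p6, 250 bases before to 50 bases after the gene start) were given for 8 of the 10 members, and Stat4, Stat5a and Stat5b had more than 1 window each. The STAT palindrome TTCNNNGAA, searched on both strands, was present in 8.30% of 32851 promoter windows of the same length, and 0.457% of windows held 2 or more. It occurred in the windows of Cish and Socs3, and in none of the other members' windows. In Cish it was present at 2 places, and the stretch that holds them, chr9:107296656-107296681 on the plus strand, lies in an annotated exon, so only a short piece is shown. In Socs3 it was present once, in chr11:117969452-117969580 on the minus strand, upstream of the RefSeq gene start. The element of interferon regulatory factors, GAAA repeated after a gap of any 2 bases and searched on both strands, was present in 3.44% of windows. It occurred as a pair of overlapping matches in Socs1, in chr16:10785544-10785679 on the minus strand, and at 1 place in a window of Stat4. The 5-base core GGAAA bound by NFAT was present in 61.3% of windows, and 3 of its matches in Cish, 1 in Socs3 and 1 in Socs1 lie in the stretches shown. Those in Cish overlap the STAT palindromes, and that in Socs1 overlaps the interferon regulatory elements. The NFAT core was also present in windows of Stat4, Stat5a, Stat5b and Stat6. Among the members with a window it was absent only from Stat3. The AP-1 element TGANTCA was present in 7.81% of windows and in none of the members' windows. The sequences are written 5′ to 3′ on the strand of the gene, with the STAT element (Cish, Socs3) or the overlapping interferon regulatory elements (Socs1) in capitals.
Cish: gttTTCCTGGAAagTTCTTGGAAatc
Socs3: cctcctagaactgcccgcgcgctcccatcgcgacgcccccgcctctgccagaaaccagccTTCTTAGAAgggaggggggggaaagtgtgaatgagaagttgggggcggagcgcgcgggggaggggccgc
Socs1: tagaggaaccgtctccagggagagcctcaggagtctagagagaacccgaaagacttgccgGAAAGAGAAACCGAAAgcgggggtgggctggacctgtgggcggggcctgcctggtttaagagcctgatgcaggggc
These matches describe the letters in the windows. Binding was not measured.

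Libraries held between 10694591 and 33486259 estimated counts. Markers of T cell identity summed to between 2568 and 3800 CPM, whereas those of B cells summed to at most 10.8 CPM, of CD8 T cells to at most 8.59 CPM and of red cells to at most 0.625 CPM. The myeloid list was highest in vehicle unstimulated libraries (17.6 to 32.1 CPM, with 3 to 5 of its 10 markers at 0) and lower in Compound 10 unstimulated libraries (10.6 to 11.7 CPM) and stimulated libraries (1.79 to 7.01 CPM). The list of 8 memory or effector markers, which includes the receptor gene Il2rb, was 108 to 127 CPM in vehicle unstimulated, 177 to 189 CPM in Compound 10 unstimulated, 241 to 278 CPM in vehicle stimulated and 179 to 228 CPM in Compound 10 stimulated libraries. Regulatory T cell markers, which include the receptor gene Il2ra, summed to 22.3 to 40.4, 34.9 to 44.2, 126 to 165 and 39.4 to 68.6 CPM in the same order of groups. Naive T cell markers, which include Il7r, summed to 2448 to 2853, 2435 to 2705, 1078 to 1207 and 1545 to 1598 CPM. T cell identity markers were lowest in vehicle unstimulated libraries (2568 to 2721 CPM). They reached the most in vehicle stimulated libraries (3306 to 3800 CPM), which overlapped Compound 10 stimulated libraries (2801 to 3387 CPM). Marker sums use library totals, without the TMM factors of the later CPM values. These lists moved with the groups, and their part in the results was not tested. In bulk RNA, fewer cells that express a gene and less RNA per cell cannot be told apart.

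Levels of different members were compared per transcript length, as TPM. At rest under vehicle, Stat3 was the most abundant of the 10, at 209 ± 57.6 TPM (SD, n = 3), and Socs2 the least, at 2.03 ± 0.419 TPM. Socs1 stood at 64.0 ± 5.47 TPM in the same libraries. After stimulation Socs1 was the most abundant member, at 669 ± 39.5 TPM under vehicle (n = 2) and 763 ± 11.3 TPM with Compound 10 (n = 3), above Stat3 at 156 ± 9.45 and 236 ± 20.6 TPM. Cish stayed far below Socs1 on this scale, at 29.5 ± 1.75 TPM in vehicle stimulated and 42.6 ± 4.49 TPM in Compound 10 stimulated cells. Socs7 lay between 3.46 and 6.87 TPM in the 4 group means. These values add up all transcripts of a gene. With protein-coding transcripts alone, Stat3 stood at 101 ± 5.35 TPM in vehicle stimulated and 160 ± 15.2 TPM in Compound 10 stimulated cells. Socs2 then stood at 0.383 ± 0.224 TPM in vehicle unstimulated cells. Stat3 remained the highest and Socs2 the lowest at rest under vehicle, and Socs1 the highest after stimulation. TPM values carry no correction for a change in RNA composition, and the comparisons that follow use CPM scaled by TMM.

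In unstimulated cells Compound 10 on its own raised Socs3, and in the main fit also Socs1, Cish and Stat3. Of the 10 members, 4 were higher and none was lower (edgeR's quasi-likelihood test, Benjamini-Hochberg adjusted p under 0.05 over all 14417 genes), where 4.65% of all tested genes were higher and 3.78% lower. Those 4 were Socs3, Socs1, Cish and Stat3, while Socs2 and Socs7 did not pass. Only Socs3 kept its call in all 18 alternative fits, and 1 member was called with only the groups compared. The median log2 difference of the members was 0.52, against 0.00 for all genes. Stimulation under vehicle raised Socs1, Cish, Socs3, Stat4 and Stat6 and lowered Stat5b, which made 5 members higher and 1 lower against 19.5% and 19.4% of all genes. The median of the members was 0.40, against -0.06 for all genes. Stimulation in the presence of Compound 10 raised Socs1, Cish and Stat4 and lowered no member, against 12.8% of all genes higher and 13.7% lower, with a median of 0.11 against -0.01. Among stimulated cells, those given Compound 10 had more Stat5b and Stat3 RNA, 2 members higher and none lower, against 10.4% and 12.8% of all genes, with a median of 0.11 against 0.04. The change with stimulation differed between Compound 10 and vehicle for 1 member, Socs3, which was lower in that difference, where 2.55% of all genes were higher and 4.08% lower. In the 3 comparisons in which no member was lower, none was lower at an unadjusted p under 0.05 in edgeR (0 of 10) or in DESeq2 (0 of 10). The median of the difference between responses was -0.33 over the members and -0.00 over all genes. The 5 comparisons share groups of libraries, so their values are given side by side and are not independent.

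These splits depend on the scaling. With TMM 2814 genes were higher and 2803 lower on stimulation under vehicle, but 1202 and 6610 with library totals alone. For stimulation with Compound 10 the split was 1844 higher and 1972 lower with TMM and 810 and 5219 with library totals. For Compound 10 in stimulated cells it was 1502 and 1848 with TMM and 2090 and 1528 with upper-quartile factors, and in unstimulated cells 670 and 545 with TMM and 470 and 637 with library totals. For the difference between responses it was 368 and 588 with TMM, 494 and 476 with upper-quartile factors and 527 and 314 with library totals. Library totals moved the median of all genes to -0.83 for stimulation under vehicle and to -0.60 with Compound 10, so the stimulation values below are relative to the bulk of genes. The split of the members turned over with it: with library totals 2 members were higher (Socs1 and Cish) and 4 lower in each stimulation comparison. The lower ones under vehicle were Stat5b, Stat3, Stat5a and Socs7, and with Compound 10 they were Stat5b, Stat5a, Socs3 and Stat3. For the difference between responses, library totals gave 1 member higher (Stat5b) and 0 lower.

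**Figure D1:**
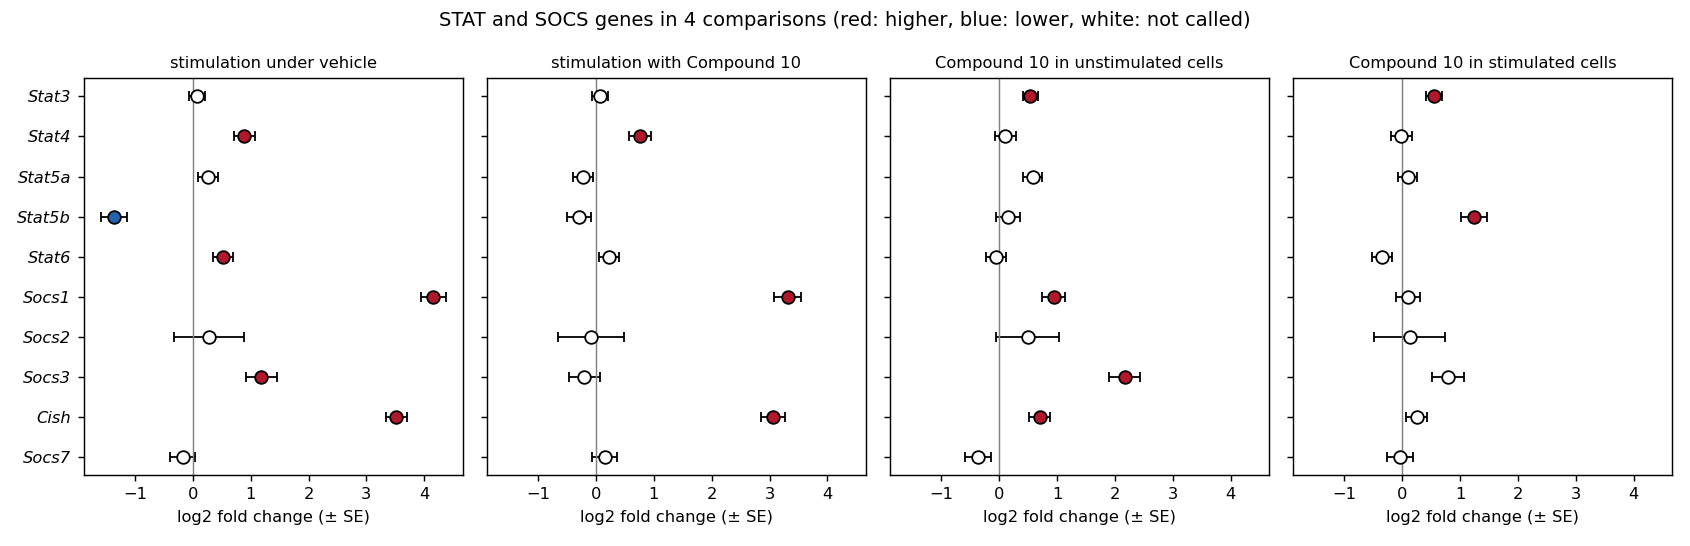
Log2 fold change ± SE of the 10 genes (rows) in 4 comparisons (panels, same axis), from a single edgeR fit to 10 libraries; red marks a higher and blue a lower value at adjusted p under 0.05, and white marks values that did not pass. Socs1 (4.15 and 3.31) and Cish (3.52 and 3.07) lie farthest to the right in the stimulation panels, Stat5b is the only blue point (-1.37), and Socs3 (2.17) is farthest to the right for Compound 10 in unstimulated cells. With scaling by library totals, Stat6, Stat5a, Stat3 and Socs2 turn negative for stimulation under vehicle and Stat3, Stat6 and Socs7 for stimulation with Compound 10.

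Socs3, whose product binds receptors such as gp130 and inhibits the attached Janus kinases, lies on chromosome 11 (mm10, 117966079 to 117970047, minus strand). Its promoter stretch with the STAT palindrome, printed above, lies upstream of the RefSeq start but inside this annotated span, outside annotated exons. Socs3 measured 32.4, 36.6 and 19.7 CPM in vehicle unstimulated libraries and 166 and 100 CPM in Compound 10 unstimulated libraries. It measured 58.8 and 75.3 CPM in vehicle stimulated and 117, 119 and 112 CPM in Compound 10 stimulated libraries. Every Compound 10 library was above every vehicle library, and the unstimulated Compound 10 group spanned the stimulated Compound 10 group. In unstimulated cells Compound 10 raised Socs3 4.50-fold, a log2 change of 2.17 ± 0.26 (SE, edgeR's quasi-likelihood test, adjusted p = 0.00112). This call held in all 18 alternative fits, with log2 changes between 1.76 and 2.49. Stimulation under vehicle raised it 2.27-fold (log2 1.18 ± 0.27, adjusted p = 0.0042, edgeR). With Compound 10 present, stimulation gave a log2 value of -0.20 ± 0.26 (adjusted p = 0.638, edgeR).

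In stimulated cells, the Socs3 difference between Compound 10 and vehicle was 0.79 ± 0.27 on the log2 scale and missed the threshold (adjusted p = 0.0591, edgeR), although the libraries of both groups did not overlap. It passed in 9 of 18 alternative fits. The difference between the stimulation responses was -1.38 ± 0.37 (log2, adjusted p = 0.0497, edgeR), so the response of Socs3 to stimulation was smaller in the presence of the compound. That call lies at the threshold and was lost in 12 of 17 alternative fits. Of the fits that left out a library, it held only without vehicle unstimulated replicate 3 (log2 -1.15) and without Compound 10 unstimulated replicate 2 (-1.72), and the others gave -1.58 to -0.98 with adjusted p from 0.0512 to 0.200 (edgeR). The stimulation call under vehicle was lost without vehicle stimulated replicate 2 (log2 0.97, adjusted p = 0.0576, edgeR) and with library totals (log2 0.41, adjusted p = 0.255).

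Socs1, whose product inhibits Janus kinases directly, is a short gene on chromosome 16 (10782240 to 10785536, minus strand). It measured 39.3, 32.8 and 46.1 CPM in vehicle unstimulated and 57.2 and 94.0 CPM in Compound 10 unstimulated libraries. After stimulation it measured 688 and 715 CPM under vehicle and 777, 708 and 772 CPM with Compound 10. All stimulated libraries were far above all unstimulated ones, and the stimulated groups overlapped. Stimulation raised Socs1 17.8-fold under vehicle (log2 4.15 ± 0.22, adjusted p = 1.46e-07, edgeR) and 9.92-fold with Compound 10 (log2 3.31 ± 0.24, adjusted p = 3.91e-06, edgeR). The stimulated groups gave a log2 difference of 0.10 ± 0.21 (adjusted p = 0.781, edgeR). In unstimulated cells Compound 10 raised Socs1 1.92-fold (log2 0.94 ± 0.20, adjusted p = 0.0198, edgeR), with no overlap between the libraries. That call was lost with only the groups compared (log2 0.95, adjusted p = 0.106) and without vehicle unstimulated replicate 1 or 2 (adjusted p = 0.0529 and 0.0633), all in edgeR fits. It was also lost without Compound 10 unstimulated replicate 2 (log2 0.54).

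Cish, a SOCS gene induced by STAT5 whose product also dampens antigen receptor signalling, lies on chromosome 9 (107296026 to 107302784, plus strand) and holds the pair of STAT palindromes shown above. It measured 9.36, 6.24 and 7.94 CPM in vehicle unstimulated and 13.6 and 12.0 CPM in Compound 10 unstimulated libraries. It measured 95.2 and 84.7 CPM in vehicle stimulated and 112, 107 and 101 CPM in Compound 10 stimulated libraries. The 4 groups did not overlap and kept the same order as for Socs1. Stimulation raised Cish 11.5-fold under vehicle (log2 3.52 ± 0.19, adjusted p = 1.57e-07, edgeR) and 8.37-fold with Compound 10 (log2 3.07 ± 0.21, adjusted p = 2.37e-06, edgeR). In unstimulated cells Compound 10 raised it 1.63-fold (log2 0.70 ± 0.18, adjusted p = 0.0398, edgeR). That last call was lost in 8 of the 10 fits that left out a library, all except those without vehicle unstimulated replicate 1 or Compound 10 stimulated replicate 3, with adjusted p from 0.0514 to 0.156 (edgeR). The unstimulated call of Cish was also lost with library totals (log2 0.63, adjusted p = 0.0609, edgeR) and with only the groups compared (0.72, adjusted p = 0.182, edgeR). In stimulated cells the difference was 0.25 ± 0.18 (log2, adjusted p = 0.367, edgeR).

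**Figure D2:**
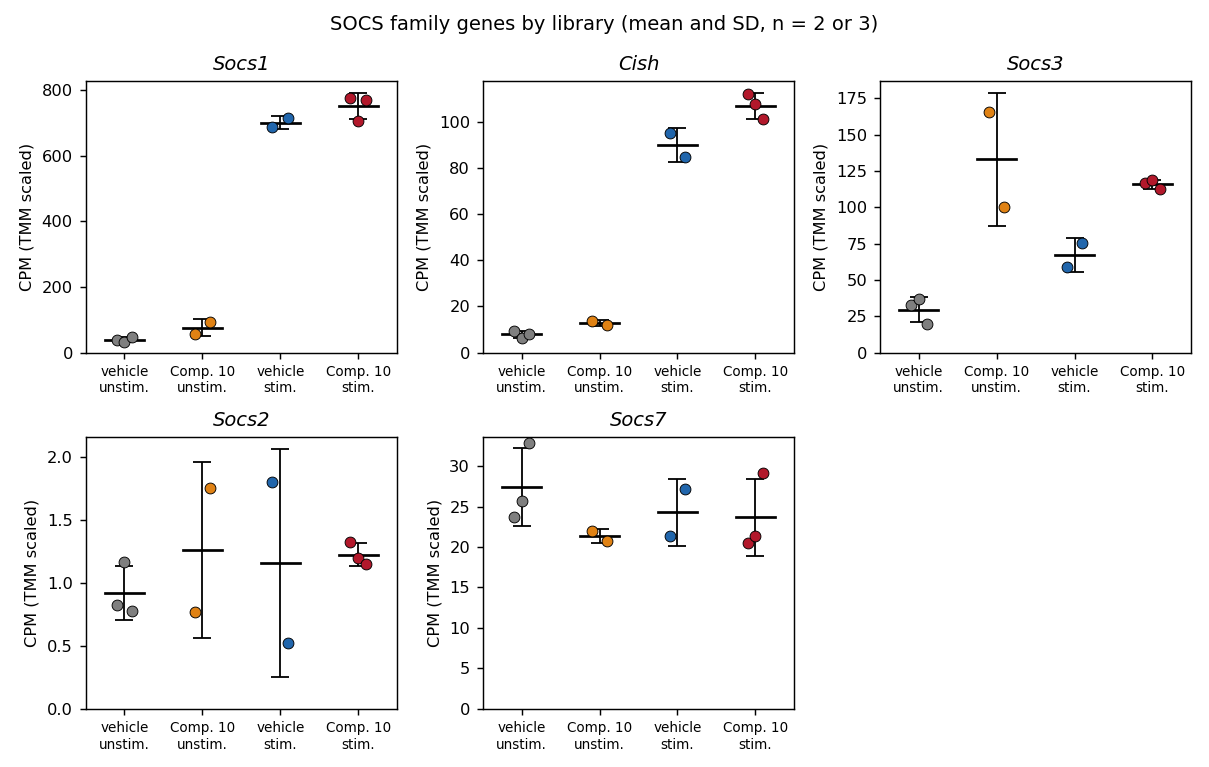
CPM (TMM scaled, linear axis from 0) of the 5 SOCS genes in each of the 10 libraries (points) by group, with the mean (bar) and SD (error bar, n = 2 or 3). Socs1 and Cish separate stimulated from unstimulated libraries, Socs3 separates Compound 10 from vehicle libraries, and Socs2 and Socs7 show overlapping groups.

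The balance between Socs3 and Socs1 within a library followed from these values. Per 100 Socs1 counts there were 82.6, 112 and 42.8 Socs3 counts in vehicle unstimulated and 289 and 107 in Compound 10 unstimulated libraries. The same measure was 8.54 and 10.5 in vehicle stimulated and between 14.6 and 16.7 in the 3 Compound 10 stimulated libraries. The stimulated groups did not overlap, whereas the unstimulated groups did.

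Socs2, which restrains growth hormone signalling, was close to the lower limit of detection, with 6 to 70 counts per library. It measured between 0.519 and 1.80 CPM in the 10 libraries, and all 4 groups overlapped. Its log2 values in the comparisons between groups lay between -0.08 ± 0.57 and 0.49 ± 0.55, and a change of the size seen for Stat3 was not detectable at this depth. Socs7, which carries the same domains and is known for effects on insulin signalling, measured 20.5 to 32.9 CPM. The only comparison in which its groups did not overlap was Compound 10 in unstimulated cells, at 21.9 and 20.7 CPM against 23.7, 25.7 and 32.9 CPM, where the test did not pass (log2 -0.37 ± 0.22, adjusted p = 0.351, edgeR).

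Stat5b had the widest relative range of group means among the 5 STAT members. It encodes, with its neighbour Stat5a, the 2 STAT5 proteins, and it lies on chromosome 11 (100780731 to 100850724, minus strand), separated from Stat5a (100859351 to 100885169, plus strand) by 8626 bases. Stat5b measured 239, 285 and 182 CPM in vehicle unstimulated and 299 and 226 CPM in Compound 10 unstimulated libraries. It measured 86.7 and 95.7 CPM in vehicle stimulated and 238, 229 and 178 CPM in Compound 10 stimulated libraries. The vehicle stimulated libraries stood below all the others, which overlapped. Stimulation lowered Stat5b 2.58-fold under vehicle (log2 -1.37 ± 0.22, adjusted p = 0.00054, edgeR). With Compound 10 present the stimulation value was -0.29 ± 0.21 (log2, adjusted p = 0.353, edgeR). Among stimulated cells Stat5b was 2.35-fold higher with the compound (log2 1.24 ± 0.22, adjusted p = 0.00219, edgeR). The fall and this rise held in all 18 alternative fits each, with log2 values from -2.15 to -1.21 and from 1.16 to 1.38. The difference between the stimulation responses was 1.08 ± 0.30 and missed the threshold (adjusted p = 0.058, edgeR), but passed in 8 of 17 alternative fits.

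Stat5a showed no such fall. It measured 267, 257 and 199 CPM in vehicle unstimulated and 413 and 309 CPM in Compound 10 unstimulated libraries. It measured 290 and 288 CPM in vehicle stimulated and 308, 318 and 300 CPM in Compound 10 stimulated libraries. The vehicle unstimulated libraries were lowest and the Compound 10 unstimulated libraries lay at or above most others. No comparison of Stat5a passed; the smallest adjusted p, for Compound 10 in unstimulated cells, was 0.0549 with a log2 value of 0.58 ± 0.17 (edgeR), and it passed in 4 of 18 alternative fits. Stimulation under vehicle gave a log2 value of 0.26 ± 0.17 (adjusted p = 0.246, edgeR).

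The ratio of both genes, in which library scaling cancels, set the vehicle groups apart from each other and from the Compound 10 groups. Per 100 Stat5a counts there were 89.3, 111 and 91.0 Stat5b counts in vehicle unstimulated libraries and 72.4 and 73.3 in Compound 10 unstimulated libraries. The ratio was 29.8 and 33.2 in vehicle stimulated libraries and 77.3, 72.0 and 59.2 in Compound 10 stimulated libraries. The vehicle stimulated libraries were lowest and the vehicle unstimulated libraries highest, and the Compound 10 groups overlapped between them. On the TPM scale the group means were 64.9, 48.3, 20.5 and 45.2 Stat5b per 100 Stat5a in the same order of groups as given here. The genes are similar in sequence and kallisto divides shared reads between them, so each value alone is less certain than for an isolated gene.

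**Figure D3:**
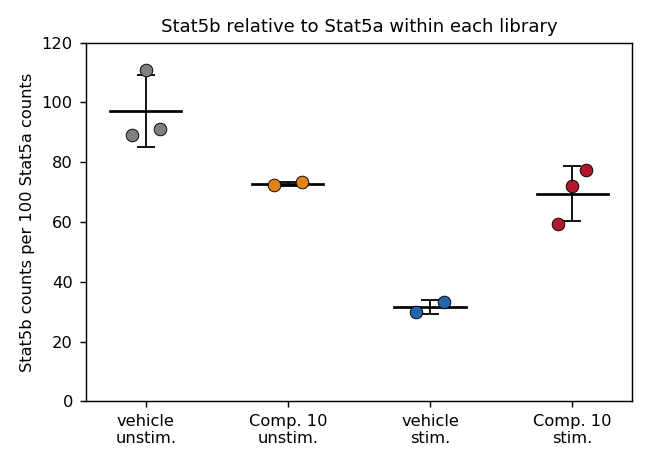
Stat5b counts per 100 Stat5a counts (linear axis from 0) in each library (points) by group, with mean (bar) and SD (error bar, n = 2 or 3). The vehicle stimulated libraries (29.8 and 33.2) lie below all others, and the vehicle unstimulated libraries (89.3 to 111) above all others.

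The transcripts counted for Stat5a also shifted. Stat5a-207, a transcript annotated as not coding for protein, held 5.72% of Stat5a counts in vehicle unstimulated and 3.73% in Compound 10 unstimulated cells (group means). It held 17.7% in vehicle stimulated and 12.0% in Compound 10 stimulated cells. The highest unstimulated library was at 6.29% and the lowest stimulated library at 11.2%. The transcript shares come from kallisto's division of reads and were not tested.

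Stat3, the transducer of gp130 cytokines, lies tail to tail with Stat5a on chromosome 11 (100885098 to 100939540, minus strand), and both annotated genes overlap by 72 bases, where reads from a kit that does not mark strand cannot be told apart. It measured 397, 442 and 361 CPM in vehicle unstimulated and 580 and 583 CPM in Compound 10 unstimulated libraries. It measured 409 and 433 CPM in vehicle stimulated and 622, 643 and 574 CPM in Compound 10 stimulated libraries. The Compound 10 libraries were all above the vehicle libraries, while stimulated and unstimulated libraries overlapped under each treatment. Compound 10 raised Stat3 1.45-fold in unstimulated cells (log2 0.54 ± 0.14, adjusted p = 0.0335, edgeR) and 1.46-fold in stimulated cells (log2 0.54 ± 0.14, adjusted p = 0.0153, edgeR). The difference between these effects was 0.00 ± 0.19 (log2, adjusted p = 1.00, edgeR). The unstimulated call was lost with library totals (log2 0.46, adjusted p = 0.0870, edgeR) and without the filter on low counts (0.54, adjusted p = 0.0558, edgeR). With only the groups compared it was lost too (0.55, adjusted p = 0.124, edgeR). It was also lost in 8 of the 10 fits that left out a library, all except those without vehicle unstimulated replicate 2 or Compound 10 stimulated replicate 3. The stimulated call was lost without vehicle stimulated replicate 1 (log2 0.50, adjusted p = 0.139), without vehicle stimulated replicate 2 (0.59, adjusted p = 0.0803) and without Compound 10 stimulated replicate 2 (0.51, adjusted p = 0.0502), all in edgeR fits.

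Stat4, the transducer of interleukin-12, followed stimulation and not the compound. It measured 63.9, 65.3 and 45.8 CPM in vehicle unstimulated and 65.5 and 60.3 CPM in Compound 10 unstimulated libraries. It measured 114 and 102 CPM in vehicle stimulated and 99.8, 119 and 101 CPM in Compound 10 stimulated libraries. All stimulated libraries exceeded all unstimulated ones, and libraries with and without the compound overlapped in each state. Stimulation raised Stat4 1.85-fold under vehicle (log2 0.89 ± 0.18, adjusted p = 0.00214, edgeR) and 1.70-fold with Compound 10 (log2 0.76 ± 0.18, adjusted p = 0.0104, edgeR). With library totals both calls were lost (log2 0.11 and 0.17, adjusted p = 0.666 and 0.507, edgeR), and the latter also without Compound 10 unstimulated replicate 2 (0.67, adjusted p = 0.0958). The compound gave log2 values of 0.11 ± 0.18 in unstimulated and -0.02 ± 0.18 in stimulated cells, neither of which passed.

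Stat6, the transducer of interleukin-4, passed only for stimulation under vehicle, with a change close in size to the called changes of Stat3 (log2 0.54 ± 0.14 each). It measured 297, 260 and 206 CPM in vehicle unstimulated and 274 and 215 CPM in Compound 10 unstimulated libraries. It measured 357 and 373 CPM in vehicle stimulated and 281, 311 and 266 CPM in Compound 10 stimulated libraries. The vehicle stimulated libraries were above all others, which overlapped. Stimulation under vehicle raised it 1.44-fold (log2 0.52 ± 0.18, adjusted p = 0.0347, edgeR), a direction that reversed to -0.26 with library totals. That call was lost without the filter on low counts (log2 0.42, adjusted p = 0.104, edgeR). It was also lost without vehicle unstimulated replicate 2 or 3 (adjusted p = 0.0747 and 0.0786, edgeR). Leaving out vehicle stimulated replicate 1 or 2 lost it too (log2 0.55 and 0.47). The stimulated groups gave -0.35 ± 0.18 (log2, adjusted p = 0.177, edgeR).

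**Figure D4:**
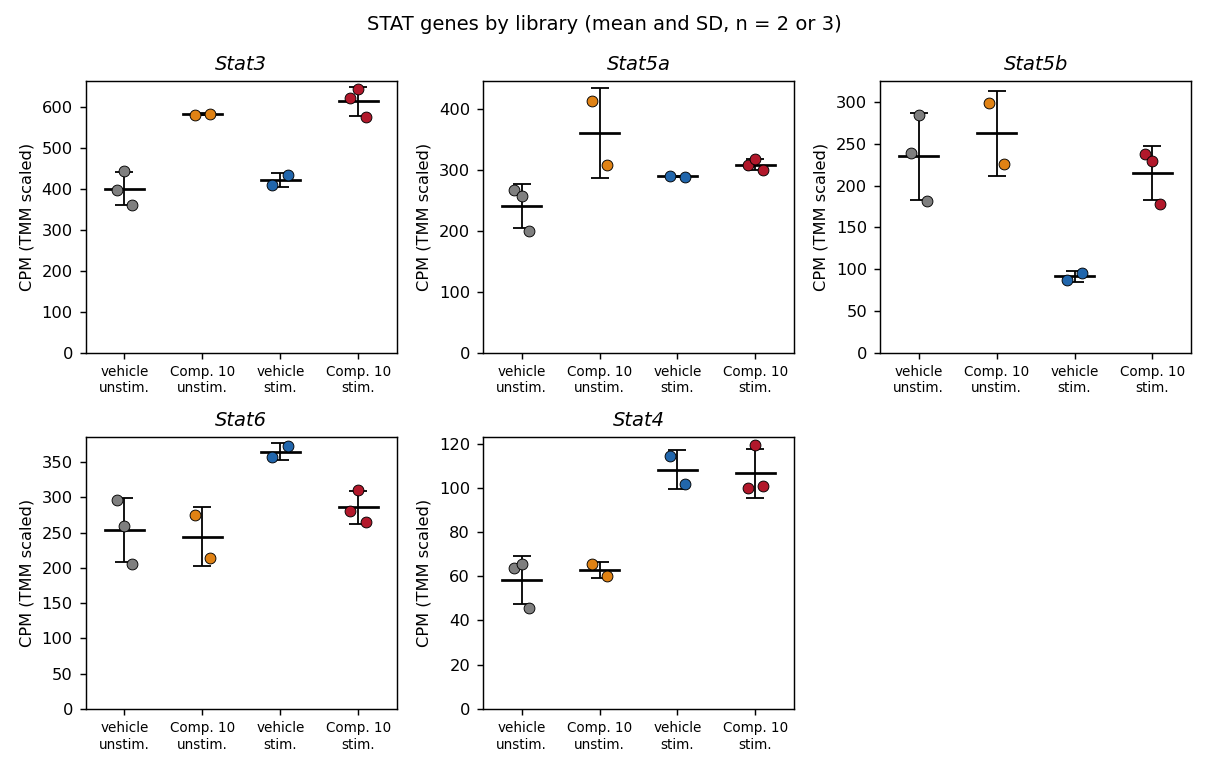
CPM (TMM scaled, linear axes from 0) of the 5 STAT genes in each of the 10 libraries (points) by group, with the mean (bar) and SD (error bar, n = 2 or 3). Stat3 is higher in all Compound 10 libraries, Stat4 in all stimulated libraries, and Stat5b is lowest in the vehicle stimulated libraries (86.7 and 95.7 CPM).

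The numbers in the library names fall into 3 runs (13 to 16, 19 to 22 and 25 to 29), whose meaning the labels do not state. Within the runs that held both groups, the log2 difference of Socs3 between Compound 10 and vehicle in unstimulated cells was 2.17 and 2.34. For Stat5b in stimulated cells it was 1.46 and 1.26, and for Stat3 in stimulated cells 0.61 and 0.57. The fall of Stat5b on stimulation under vehicle was -1.46 and -1.57 within runs. Each of these kept the sign of the pooled value.

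Related genes of both families also moved. Stat2, a transducer of interferon signals, fell by 1.67 ± 0.22 on the log2 scale on stimulation under vehicle (adjusted p = 0.000144, edgeR). In the same comparison Socs4 and Socs6 rose by 1.66 ± 0.14 and 1.04 ± 0.17 (adjusted p = 5.13e-06 and 0.000599, edgeR), and the call of Socs6 was lost with library totals (0.26, adjusted p = 0.238). In stimulated cells Compound 10 raised Stat2 by 1.75 ± 0.22 (adjusted p = 0.000315, edgeR), from 31.9 ± 4.23 to 107 ± 13.9 CPM (SD, n = 2 and 3), and raised Socs5 by 0.97 ± 0.21 (adjusted p = 0.0055, edgeR), a call lost without vehicle stimulated replicate 1 (0.86, adjusted p = 0.0762). It lowered Socs6, by -1.16 ± 0.17 (adjusted p = 0.000783, edgeR). In unstimulated cells Stat2 rose with the compound (0.75 ± 0.20, adjusted p = 0.0439, edgeR), a call lost in 12 of 18 alternative fits. Of the fits that left out a library it held only in that without Compound 10 stimulated replicate 3, and the others gave adjusted p from 0.0522 to 0.202 (edgeR).

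Of the 4 Janus kinases, Jak2 moved most. It stood at 36.2 ± 3.09 CPM (SD, n = 3) in vehicle unstimulated, 41.6 ± 3.86 (n = 2) in Compound 10 unstimulated, 260 ± 6.49 (n = 2) in vehicle stimulated and 81.3 ± 15.6 CPM (n = 3) in Compound 10 stimulated cells. Stimulation raised it by 2.84 ± 0.18 under vehicle (log2, adjusted p = 4.56e-07, edgeR) and by 0.97 ± 0.18 with Compound 10 (adjusted p = 0.00239, edgeR), the latter lost with library totals (0.39, adjusted p = 0.130). The difference between those responses was -1.88 ± 0.24 (adjusted p = 0.00232, edgeR). Jak1 rose by 0.54 ± 0.19 on stimulation under vehicle (adjusted p = 0.0409, edgeR), a value that turned to -0.25 with library totals. The call was also lost in 9 other alternative fits. These were the fits without the filter (adjusted p = 0.0768), with only the groups compared (0.0562), and without vehicle unstimulated replicate 3, either vehicle stimulated replicate, either Compound 10 unstimulated replicate, or Compound 10 stimulated replicate 1 or 2 (0.0506 to 0.201, edgeR). Jak3 and Tyk2 passed in no comparison. Among 9 tested phosphatases and other restraints of the pathway, 3 rose and 3 fell on stimulation under vehicle, against 19.5% and 19.4% of all genes. The largest rise was that of Sh2b3, an adaptor that restrains JAK2, at 3.52 ± 0.25 (log2, adjusted p = 1.11e-06, edgeR). None of the 9 passed for Compound 10 in unstimulated cells (edgeR, 0 at an unadjusted p under 0.05, and 0 in DESeq2), while 2 were higher and 3 lower in stimulated cells, against 10.4% and 12.8% of all genes. Sh2b3 was among the lower, at -0.89 ± 0.23 (adjusted p = 0.0177, edgeR). That call was lost without vehicle stimulated replicate 1 or 2 (adjusted p = 0.146 and 0.0615, edgeR) and without Compound 10 stimulated replicate 3 (0.0592).

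Cytokine receptor genes differed with the compound in both states. In unstimulated cells 7 of 19 tested receptors were higher with Compound 10 and none was lower, against 4.65% and 3.78% of all genes, with a median log2 value of 0.77 against 0.00. No receptor was lower at an unadjusted p under 0.05 in edgeR or in DESeq2 (0 of 19 each). Il7r, the interleukin-7 receptor that signals through STAT5, rose by 2.08 ± 0.16 (adjusted p = 6.18e-05, edgeR), from 54.2 ± 6.38 to 230 ± 23.6 CPM. Il2rb, the beta chain shared by the interleukin-2 and interleukin-15 receptors, rose by 1.76 ± 0.29 (adjusted p = 0.00633, edgeR), and this call was lost with only these unstimulated groups in the fit (1.77, adjusted p = 0.054, edgeR). In stimulated cells 6 receptors were higher and 5 lower, against 10.4% and 12.8% of all genes. Il7r was again higher (2.36 ± 0.18, adjusted p = 4.17e-05, edgeR), and Il2ra, the inducible alpha chain, was lower (-2.06 ± 0.23, adjusted p = 0.000141, edgeR). The response of Il2rb to stimulation was smaller with the compound by 3.18 on the log2 scale (-3.18 ± 0.41, adjusted p = 0.00221, edgeR).

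**Figure D5:**
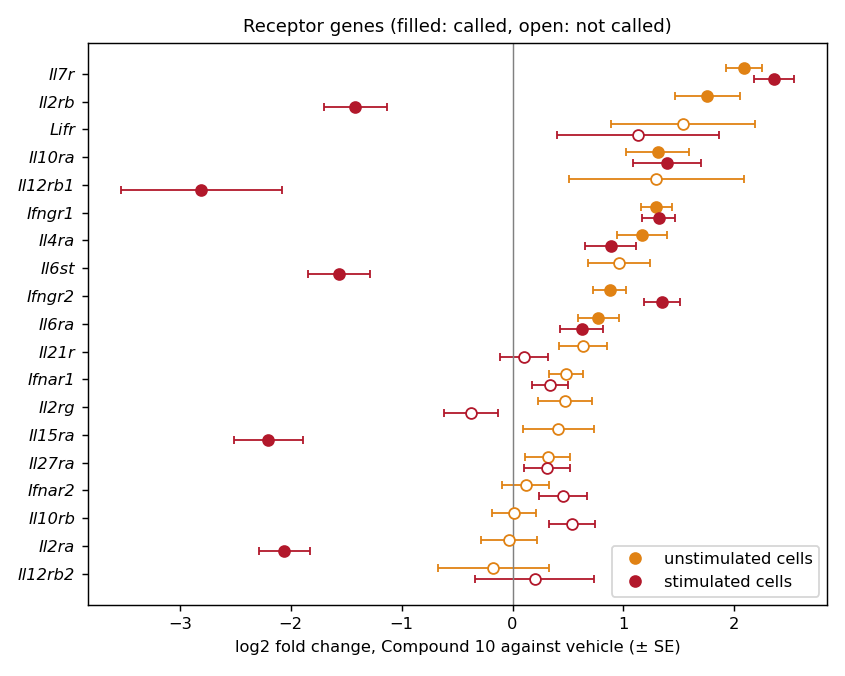
Log2 fold change ± SE of Compound 10 against vehicle for the 19 tested receptor genes (rows), in unstimulated (orange) and stimulated cells (red), where filled points passed at adjusted p under 0.05 and open points did not. Il7r lies to the right in both states (2.08 and 2.36), whereas Il2rb lies to the right in unstimulated (1.76) and to the left in stimulated cells (-1.42).

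Of 18 ligand genes only 7 passed the filter on low counts. Il2, the interleukin-2 gene, rose from 4 counts over the 3 vehicle unstimulated libraries to 363 ± 25.3 CPM after stimulation under vehicle and stood at 42.2 ± 11.3 CPM with Compound 10, a log2 difference between stimulated groups of -3.10 ± 0.23 (adjusted p = 4.17e-05, edgeR). Il3 and Csf2 had 0 counts in all 5 unstimulated libraries, so they passed the filter through the stimulated ones alone. Among the 7 ligands, 1 was higher and 3 were lower with Compound 10 in stimulated cells, against 10.4% and 12.8% of all genes. The higher one was Ifng, at 4.22 ± 0.877 CPM under vehicle and 11.1 ± 1.11 CPM with the compound (log2 1.38, adjusted p = 0.0309, edgeR). Its call was lost in 5 of 18 alternative fits. The lower ones were Il2, Il3 and Lif. The calls of Il3 and Lif were each lost in 2 of 18 alternative fits, those without a vehicle stimulated replicate. Among 31 tested genes known as STAT targets, 19 were higher and 1 lower on stimulation under vehicle, against 19.5% and 19.4% of all genes (median 1.18 against -0.06). On stimulation with the compound 17 were higher and 1 lower, against 12.8% and 13.7% (median 0.98 against -0.01). For Compound 10 in unstimulated cells 9 were higher and none was lower in edgeR, against 4.65% and 3.78% of all genes (median 0.52 against 0.00), where 2 were lower at an unadjusted p under 0.05 and 0 in DESeq2. Among the 9 were Bcl2, a survival gene (0.91 ± 0.16, adjusted p = 0.00708, edgeR), and Gata3, the factor of the Th2 lineage (1.65 ± 0.24, adjusted p = 0.00339, edgeR). Both calls were lost with only the groups compared (adjusted p = 0.054 and 0.0513, edgeR), and that of Bcl2 also without Compound 10 unstimulated replicate 2 (0.0555). In stimulated cells 5 were higher and 2 lower, against 10.4% and 12.8%, and Ccnd2, a cyclin, was the lowest (-1.54 ± 0.18, adjusted p = 0.000193, edgeR). Several genes of this list are also induced by other factors in activated T cells.

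The genes whose pattern over the 10 libraries was most like that of the feedback genes were found by Pearson correlation of log2 CPM among 7450 named genes of average log2 CPM of at least 3. For Socs1 they were Phtf2, Amd1 and Dynll1, each with r of 0.996. For Cish they were Tnfrsf12a at 0.996, and Socs4 and Fabp5, each at 0.995. Socs3 was most like Sgms1 at 0.972, Bcl11b at 0.971 and Chd3 at 0.959. Bcl11b, a zinc finger factor of T cells, stood at 55.7 ± 5.26, 132 ± 16.6, 81.0 ± 15.6 and 110 ± 8.82 CPM in vehicle unstimulated, Compound 10 unstimulated, vehicle stimulated and Compound 10 stimulated cells, the same order of groups as Socs3. The values for Socs2 were lower, at 0.837 for Zfp280c, 0.761 for Kif11 and 0.742 for Fads1, on few counts. These correlations are descriptions over 10 libraries that share 4 groups.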

How the data were processed

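RNA of 10 libraries of sorted naive CD4 T cells was measured with a Clontech SMART-seq kit, per the labels' protocols, which does not mark strand. Per the submitters' processing notes, cutadapt and kallisto were used with build mm10; which versions and which transcript annotation is not given in the sources used here. Per the file headers, the deposited tables hold an estimated count, a TPM value and a length and effective length for each transcript; TPM was made by the authors, and was used for levels only.

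Transcripts were matched to GENCODE release M21 by identifier (108214 of 109617; the rest held 0.507% to 0.671% of counts and were dropped), and for each gene the estimated counts of its transcripts were added up and rounded. edgeR 4.0.16 (limma 3.58.1, R 4.3.3) was fitted to all 10 libraries with 1 coefficient per group, TMM factors (0.731 to 0.850 in stimulated, 1.20 to 1.34 in unstimulated libraries) and filterByExpr, which left 14417 of 45321 genes. Contrasts were tested with edgeR's quasi-likelihood test, adjusted by Benjamini-Hochberg over all tested genes, and called at adjusted p under 0.05. The SE was taken from the F statistic. CPM uses the TMM factors, except marker sums, which use library totals.

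No pair of libraries of a group agreed within sampling noise (chi-square per degree of freedom at least 14.8). Alternatives were other scalings (RLE, upper quartile, library totals), no filter, DESeq2 1.42.0, only the groups compared, blocks for replicate number and for runs of numbers in library names, and leaving out each library. The members, the pathway lists, the marker lists and the rule for likeness were chosen with earlier results of these data known. All 10 members are named in every comparison; of other lists, up to 4 genes with the smallest adjusted p per comparison were open to naming, and so were further STAT and SOCS genes, of which 1 result is not reported here. Coordinates are those of the annotation, counted from 1.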

Additional observations from a re-analysis of the deposited data

Results flagged for a closer look

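Socs3 was called, at the threshold, as responding differently to stimulation with Compound 10 than under vehicle, by the test of that difference itself. Its log2 change with stimulation was 1.18 ± 0.27 under vehicle and -0.20 ± 0.26 with the compound, a difference of -1.38 ± 0.37 (edgeR's quasi-likelihood test, adjusted p = 0.0497). The starting levels differed as well: Socs3 stood at 29.6 ± 8.81 CPM (SD, n = 3) in vehicle unstimulated and 133 ± 46.0 CPM (n = 2) in Compound 10 unstimulated cells, against 67.1 ± 11.7 (n = 2) and 116 ± 3.18 CPM (n = 3) after stimulation. The difference kept its sign in all 17 alternative fits, with log2 values from -1.72 to -0.98, but the call was lost in 12 of them. Its smallest adjusted p was 0.000262 (edgeR, no filter on low counts).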

How the results depend on the processing

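Over the 10 members and all comparisons, 890 values were recomputed under alternatives. In 805 of them the direction of called values and the side of the threshold were kept, 50 lost a call, 31 gained one and 4 reversed; 45 values that passed in neither fit changed sign. With library totals, log2 values on stimulation under vehicle reversed for Stat3 (-0.71), Stat5a (-0.52), Stat6 (-0.26) and the kinase Jak1 (-0.25), and for Stat3 on stimulation with Compound 10 (-0.51); that setting moves the median of all genes, as given above. The number of members called changed with the setting as follows. For stimulation with Compound 10 it was 6 (2 higher, 4 lower) with library totals, against 3; under vehicle it stayed at 6, but as 2 higher and 4 lower. For Compound 10 in unstimulated cells it was 2 with library totals and 1 with only the groups compared, against 4. For the difference between responses it was 0 with RLE factors and 3 each without the filter, with DESeq2 and with the block for runs of library numbers, against 1. With upper-quartile factors, library totals or the replicate block it stayed at 1, but as 1 higher (Stat5b) and 0 lower, and Socs3 was lost. The same held without Compound 10 stimulated replicate 3. Leaving out each library gave 4 to 6 members for stimulation under vehicle, 2 to 3 with Compound 10, 1 to 3 for Compound 10 in stimulated cells, 1 to 4 in unstimulated cells and 0 to 3 for the difference.

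Over all genes, the calls for stimulation with Compound 10 came to 6029 with library totals, against 3816. For Compound 10 in unstimulated cells they came to 1900 with DESeq2, 122 with only the groups compared and 2403 with the block for runs, against 1215. For the difference they came to 1448 without the filter, 1692 with DESeq2, 1504 with the replicate block and 2167 with the block for runs, against 956. Leaving out each library gave 3568 to 5769 genes for stimulation under vehicle, 2347 to 4370 with Compound 10, 1589 to 3919 for Compound 10 in stimulated cells, 325 to 1335 in unstimulated cells and 191 to 1332 for the difference. The cause was not tested. The labels do not state whether replicate numbers pair the libraries. Deviations of same-numbered libraries from their group means correlated at -0.28 to 0.33 over 13 pairs. Those of libraries in the same run of numbers correlated at -0.05 to 0.46 over 12 pairs. In a group of 2 libraries both deviations mirror each other, so these values cannot decide whether libraries are paired. With the replicate block the difference for Socs3 was -1.12 (adjusted p = 0.0869, edgeR) and missed the threshold. Depth limits Socs2, which had 6 to 70 counts per library, and groups of 2 libraries limit every comparison.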
